A study of Rattus norvegicus with 8 samples.

Results

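The genes of the synaptic vesicle release machinery were described in whole rat hippocampus after a short infusion of vehicle or corticosterone (CORT). They were chosen by their symbols alone: the synaptotagmins (Syt), SNAPs, syntaxins (Stx), syntaxin-binding proteins (Stxbp), VAMPs, synapsins (Syn1 to Syn3), SV2 proteins, symbols that begin with Rab3, complexins (Cplx), RIMs (Rims) and Unc13 genes. A symbol with several transcript rows was represented by the row with the highest mean of both groups. The rule took 83 of the 13272 symbols in the expression table, and 108 of its 16266 transcript rows. Of these members, 11 are Rab30 to Rab39 genes, other Rab GTPases that the rule took by their first letters alone. Snap91 encodes AP180, a clathrin adaptor of vesicle retrieval and not a SNARE. Expression had a mean of at least 1 FPKM (a level in sequenced fragments, scaled for transcript length and for library size) for 78 members and of at least 10 FPKM for 56.

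Neurotransmitter is released when a synaptic vesicle fuses with the presynaptic membrane. Synapsins hold vesicles in a reserve pool, Rab3 and RIM tether them at the active zone, and Unc13 proteins prepare them for fusion. A VAMP on the vesicle then zips with a syntaxin and SNAP-25 on the plasma membrane into a SNARE complex. Complexins clamp and assist that complex, and synaptotagmins trigger fusion when calcium enters. In the hippocampus this machinery serves the fast glutamatergic and GABAergic synapses on which synaptic plasticity depends. Other members of the same families work in endosomes, the Golgi apparatus, the endoplasmic reticulum and glia.

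All 8 rats had been adrenalectomized, so that they made no corticosterone of their own, and carried a cannula in the jugular vein. They drank corticosterone in saline during recovery and saline alone before the experiment. The vehicle group (n = 4) received 0.45% saline and the CORT group (n = 4) received corticosterone-2-hydroxypropyl-β-cyclodextrin at 0.75 mg/mL, each for 30 min. The titles call the vehicle rats untreated, but their treatment label names the saline. The labels give Sprague-Dawley rats aged 3 to 4 months at ZT2 (zeitgeber time, hours after lights on), whereas the methods name younger Lister hooded rats, an infusion that began at ZT2 and collection 2 h later. The values used were 1 FPKM per group, pooled by the authors over its 4 rats. They carry no spread between rats and no read number, so no difference was tested, and every "higher" or "lower" compares a pair of group values only. A difference of 1.2-fold or more (0.26 on the log2 scale) was counted as a description.

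The general level of the release genes was similar in both groups. Their median log2 ratio of CORT over vehicle was 0.06, against 0.02 over all symbols, and the middle 50% of the members lay between -0.06 and 0.15. Summed over members, expression was 5664 FPKM (vehicle) and 5971 FPKM (CORT). At 1.2-fold or more, 7 members were higher with CORT, which is 8.43% of them beside 8.34% of all symbols. At the same fold, 10 members were lower, which is 12% beside 12% of all symbols. At 1.5-fold or more, 2 members were higher (1.92% of all symbols) and 3 were lower (3.99% of all symbols). The members' shares past these folds were therefore near those of the whole table.

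Small differences leaned towards higher values with CORT among the well expressed members. At any size, 54 of 83 members were higher with CORT (65.1%), beside 54.2% of all symbols. Of the 56 members with a mean of at least 10 FPKM, 43 were higher (76.8%), beside 60.7% of the 7174 symbols at that level, and their median log2 ratio was 0.11 beside 0.03. In that class 5 members were higher by 1.2-fold or more (4.91% of symbols) and 2 were lower (3.96% of symbols). The 13 members above 100 FPKM all lay within 1.2-fold, from -0.03 to 0.23, and 12 of them were higher with CORT. The share of all symbols at that level was not computed, so that count has no background. Of the 27 members with a mean under 10 FPKM, 2 were higher by 1.2-fold or more (7.41%, beside 12.4% of the 6098 symbols at that level) and 8 were lower (29.6%, beside 21.4%). Their median was -0.02, which was also that of all symbols at that level.

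**Figure D1:**
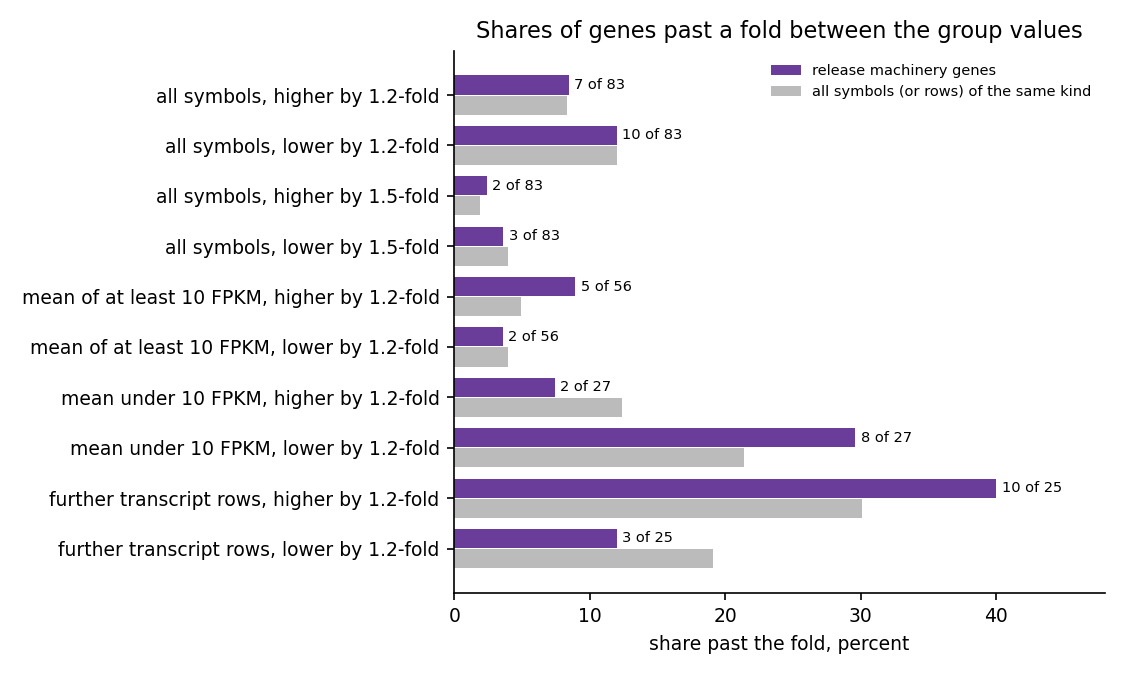
Share of genes past a fold between the group values, in percent (x axis), for the release machinery genes (purple, with counts) and all symbols or rows of the same kind (grey). The bars are near each other over all 83 members, and the purple bar is longer for higher values among genes of at least 10 FPKM (8.93% beside 4.91%) and among further transcript rows (40% beside 30.1%). Under 10 FPKM the purple bar is longer for lower values (29.6% beside 21.4%) and shorter for higher values (7.41% beside 12.4%).

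**Figure D2:**
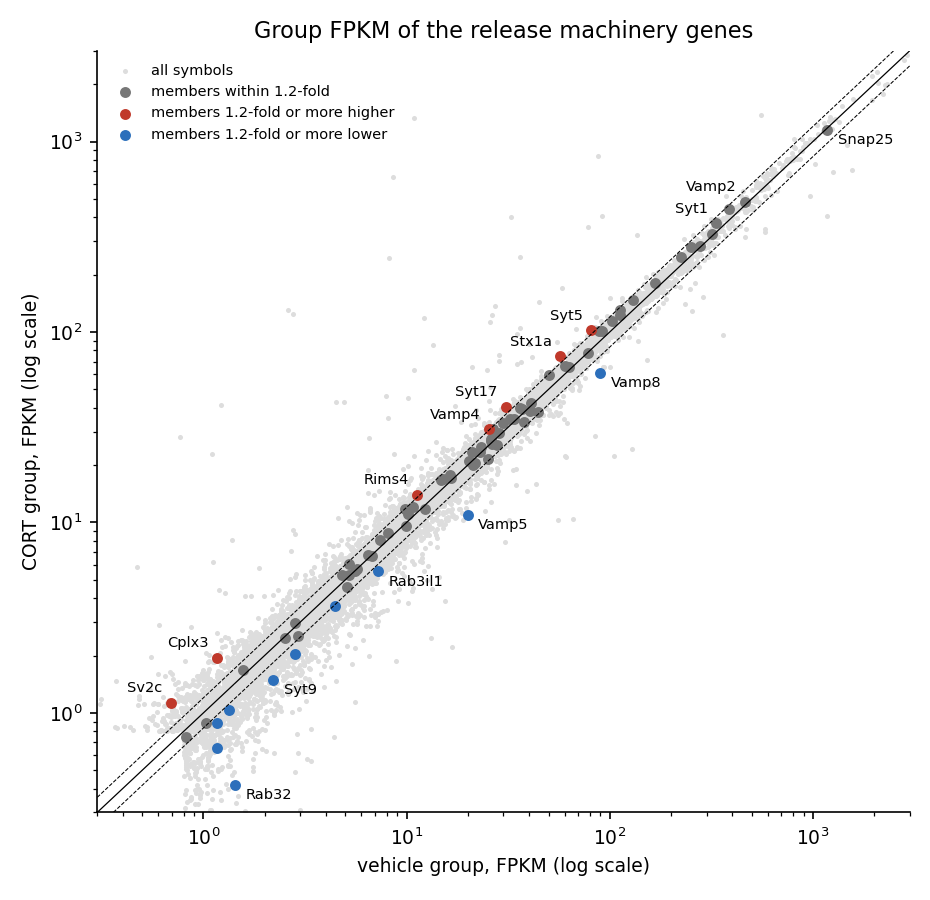
Vehicle FPKM (x axis) against CORT FPKM (y axis), both on log scales, for all symbols (light grey) and the 83 members (large points), with lines at equality and at 1.2-fold. The 7 red members lie above and the 10 blue members below the band, most of the blue ones at low FPKM, and Snap25, the most abundant, lies on the line of equality.

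The SNAREs that carry out vesicle fusion were abundant and, apart from Stx1a, close between groups. Snap25 encodes the plasma membrane SNARE SNAP-25 and was the most abundant member, at 1178 FPKM (vehicle) and 1155 FPKM (CORT) (log2 ratio -0.03). It made up 95.3% of the summed FPKM of the SNAP family without Snap91 in the vehicle group and 95.0% in the CORT group. Vamp2, the main VAMP of synaptic vesicles, was at 461 and 483 FPKM (0.07). Its close relative Vamp1 was at 130 and 147 FPKM (0.17). Both vesicle SNAREs were thus slightly higher with CORT, inside 1.2-fold.

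Among the plasma membrane SNAREs, Stx1a stood farthest from equality. It encodes a syntaxin that pairs with SNAP-25 and VAMP2, and was at 57.0 FPKM (vehicle) and 74.6 FPKM (CORT) (log2 ratio 0.39, 1.31-fold), the largest log2 ratio of any SNARE in the rule. Stx1a accounted for 11.3% of summed syntaxin FPKM with vehicle and 14.1% with CORT. The other plasma membrane SNAREs lay within 1.2-fold, among them Stx4 of general exocytosis, at 37.9 and 33.5 FPKM (-0.18).

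Stx1a lies on chromosome 12 (rn6, 24682040 to 24710019). The 250 bases before its start are shown because it had the largest ratio among the SNAREs, and those of Vamp2, Vamp5 and Vamp8 to set an even VAMP beside the 2 lower ones. The sequences are from RefSeq (GRCr8), each written 5′ to 3′ on the strand of its gene. They stand at chr12:27306472-27306721 (minus strand) for Stx1a, chr10:54292539-54292788 (plus strand) for Vamp2, chr4:105993248-105993497 (minus strand) for Vamp5 and chr4:106005643-106005892 (minus strand) for Vamp8. Capitals mark AGAACA, 1 arm of the palindromic site of the glucocorticoid receptor, or the GC box GGGCGG, on either strand.
Stx1a: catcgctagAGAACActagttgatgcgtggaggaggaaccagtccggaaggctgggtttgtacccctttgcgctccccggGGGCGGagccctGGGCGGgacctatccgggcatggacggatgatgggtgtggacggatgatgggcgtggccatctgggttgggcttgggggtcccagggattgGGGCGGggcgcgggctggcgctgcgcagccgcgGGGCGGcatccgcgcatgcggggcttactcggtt
Vamp2: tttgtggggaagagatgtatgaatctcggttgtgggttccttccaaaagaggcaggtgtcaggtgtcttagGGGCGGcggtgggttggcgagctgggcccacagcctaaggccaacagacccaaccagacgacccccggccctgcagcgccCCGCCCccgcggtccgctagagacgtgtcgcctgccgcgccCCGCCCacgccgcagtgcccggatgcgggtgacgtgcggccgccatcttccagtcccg
Vamp5: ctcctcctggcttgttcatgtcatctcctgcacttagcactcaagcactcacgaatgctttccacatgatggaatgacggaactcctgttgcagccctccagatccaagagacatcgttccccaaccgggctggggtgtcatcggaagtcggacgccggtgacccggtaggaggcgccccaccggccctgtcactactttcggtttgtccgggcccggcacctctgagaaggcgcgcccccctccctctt
Vamp8: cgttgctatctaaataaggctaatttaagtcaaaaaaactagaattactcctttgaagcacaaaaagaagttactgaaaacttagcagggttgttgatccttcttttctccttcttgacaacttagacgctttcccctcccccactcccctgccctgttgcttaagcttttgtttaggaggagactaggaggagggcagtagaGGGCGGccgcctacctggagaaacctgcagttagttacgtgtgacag

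The Stx1a stretch held 1 match to AGAACA, 241 bases before the start, and 4 GC boxes. The Vamp2 stretch held 3 GC boxes, the Vamp8 stretch held 1, and the Vamp5 stretch held neither motif. RefSeq promoters of 300 bases, 250 before the start and 50 after it, were found for 64 of the 83 members. The full palindrome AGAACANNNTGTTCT was in 0 of the 64 and in 2 of all 27457 promoters (0.00728%). The single arm AGAACA was in 6 of the 64 (9.38%), namely Rab39a, Rab3a, Stx1a, Stx5, Stxbp2 and Syt2, beside 20.1% of all promoters and 12% of the 9624 promoters of symbols in the table. The cAMP response element TGACGTCA was in 2 of the 64, Syn1 and Vamp1 (3.12%), beside 1.91% and 3.08%. The E-box CACGTG was in 7 (10.9%), beside 6.65% and 9.23%. The GC box was in 43 (67.2%), beside 34.9% and 62.5%. Both strands were searched, and an arm inside a full palindrome counted for both motifs. A match describes letters only.

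The VAMPs of endosomes and of the surface outside the synapse did not share a direction. Vamp8 (chromosome 4, 100250300 to 100252755, rn6), a SNARE of late endosomes and of secretory granules outside neurons, was at 89.6 FPKM (vehicle) and 61.2 FPKM (CORT) (log2 ratio -0.55). Vamp5 (chromosome 4, 100231560 to 100232559, rn6), best known from muscle and other non-neuronal cells, was at 20 and 11 FPKM (-0.86). Both were lower with CORT, and they were the only lower members past 1.2-fold with a mean of at least 10 FPKM. Vamp3, the widely expressed cellubrevin of recycling endosomes and glia, was at 44.2 and 37.8 FPKM (-0.23), inside 1.2-fold. Vamp4, a SNARE between the Golgi and endosomes, was at 25.4 and 30.9 FPKM (0.28), just outside it. Vamp7, of late endosomes and lysosomes, was at 32.2 and 34.8 FPKM (0.11), between the log2 ratios of Vamp2 and Vamp1. Vamp8 made up 11.2% of summed VAMP FPKM in the vehicle group and 7.60% in the CORT group, while Vamp2 made up 57.4% and 60.0%. The 13 SNAREs of endosomes, Golgi or endoplasmic reticulum had a median log2 ratio of 0.00.

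Because the tissue was a whole hippocampus, fewer cells of a type and less RNA per cell cannot be told apart. The listed glial markers were lower with CORT, some of them by little, such as Gja1 (log2 ratio -0.10), Slc1a3 (-0.09) and Mag (-0.09). At any size, 6076 of the 13272 symbols were lower. All 5 microglial markers were lower with CORT, with a summed level of 115 FPKM (vehicle) and 86.0 FPKM (CORT). All 5 astrocyte markers were lower, with sums of 1342 and 841 FPKM, most of it Gfap at 970 and 517 FPKM. All 5 oligodendrocyte markers were lower, at 4829 and 3987 FPKM. Of the markers of meningeal fibroblasts with a row, 3 of 4 were lower (92.4 and 74.9 FPKM), as were 2 of 3 of endothelium (61.1 and 54.7 FPKM). Choroid plexus markers were near equality (median log2 ratio -0.02, sums of 6687 and 6674 FPKM). Of these, 3 of 4 were lower, Aqp1 the most (-0.38). None of the markers with a row was at 0 FPKM in either group. Their part in the levels of Vamp5, Vamp8 and the other lower members was not tested.

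**Figure D3:**
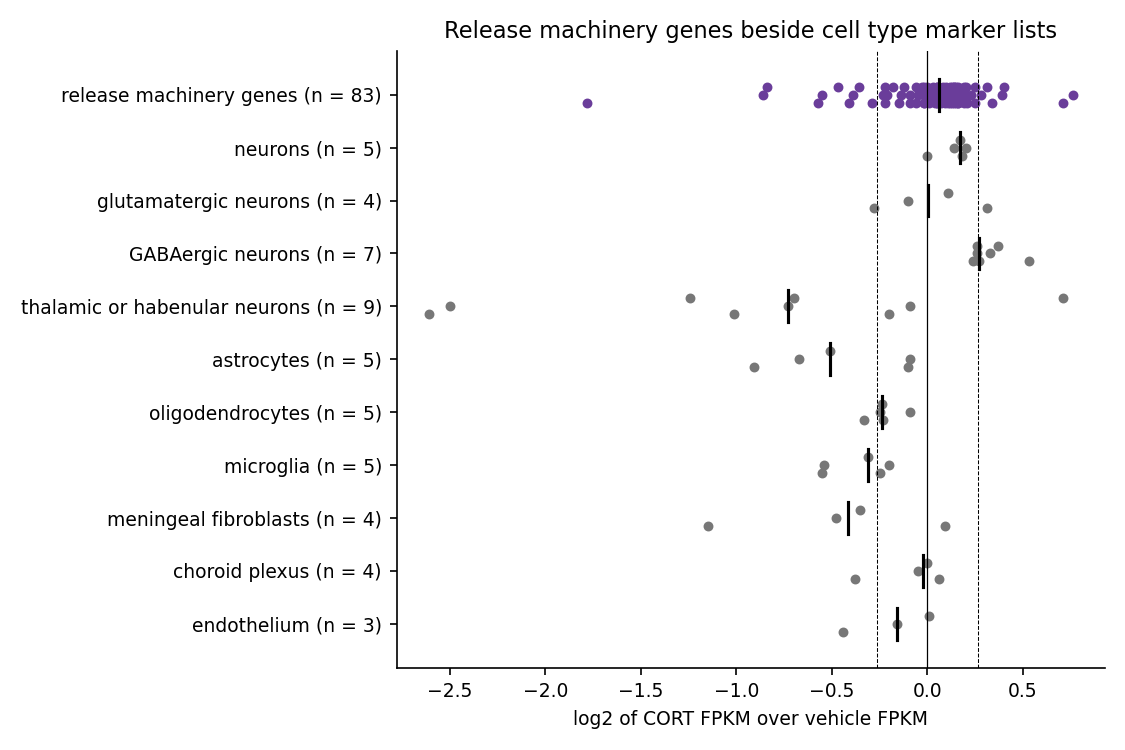
log2 ratio of CORT over vehicle FPKM (x axis) for the marker genes of each cell type, beside the release machinery genes, each point 1 gene and each bar the median (the pineal list is not drawn). GABAergic markers lie to the right of 0, and the markers of astrocytes, oligodendrocytes and microglia lie to its left.

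The lists of neuronal markers and the pineal list did not share a direction. All 5 general neuronal markers with a row were at or above their vehicle value, with sums of 1229 and 1374 FPKM and a median log2 ratio of 0.17. All 7 GABAergic markers were higher with CORT (median 0.27), beside 54.2% of all symbols, with sums of 554 and 683 FPKM. By 1.2-fold or more, 5 of them were higher, beside 8.34% of all symbols. Gad1 and Pvalb (both 0.26) and Cck (0.27) lay at that threshold, and Gad2 (0.24) just inside it. Glutamatergic markers were split, with 2 of 4 higher and sums of 880 and 929 FPKM, and Slc17a7, the vesicular glutamate transporter of hippocampal principal cells, was at 736 and 794 FPKM. Markers of thalamic or habenular neurons were lower for 8 of 9, with sums of 60.7 and 39.1 FPKM, and both pineal markers with a row were lower, with sums of 8.17 and 0.409 FPKM. The part of these differences in the members' values was not tested.

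The calcium sensors among the synaptotagmins did not share a direction. Syt1, the sensor of fast synchronous release, was at 334 FPKM (vehicle) and 374 FPKM (CORT) (log2 ratio 0.16). Syt7, which serves slow release and facilitation, was at 26.2 and 25.9 FPKM (-0.02). Syt2, the fast sensor of many hindbrain and inhibitory synapses, was at 2.53 and 2.48 FPKM (-0.02). Syt5 was the sensor that was higher past 1.2-fold, at 81.1 and 102 FPKM (0.34). Syt6 was at 4.46 and 3.64 FPKM (-0.29), and Syt9, a fast sensor in some neurons, was at 2.21 and 1.49 FPKM (-0.57). Over the 8 calcium sensors the median was -0.02, with the most abundant, Syt1, above its vehicle value and the low Syt6 and Syt9 below.

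The 7 other synaptotagmins, which lack calcium binding or serve other steps, were all higher with CORT at any size, with a median log2 ratio of 0.12. At any size, 54.2% of all symbols were higher, and 60.7% of those with a mean of at least 10 FPKM. Of the 7, 6 lay within 1.2-fold. Syt11, which does not bind calcium, was near the leading row of Syt1 in level, at 319 and 329 FPKM (0.05). Syt17 was the member of this class past 1.2-fold, at 30.8 FPKM (vehicle) and 40.6 FPKM (CORT) (0.40). Syt13 lay just inside the threshold, at 50.3 and 59.8 FPKM (0.25). Counting 1 row per symbol, Syt1 took 34.6% of summed synaptotagmin FPKM with vehicle and 35.2% with CORT, and Syt11 took 33.1% and 31.0%. With all rows summed, Syt1 took 35.4% and 36.4%, Syt11 took 30.2% and 28.1%, and Syt7 rose from 2.72% and 2.44% to 6.24% and 5.8%.

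**Figure D4:**
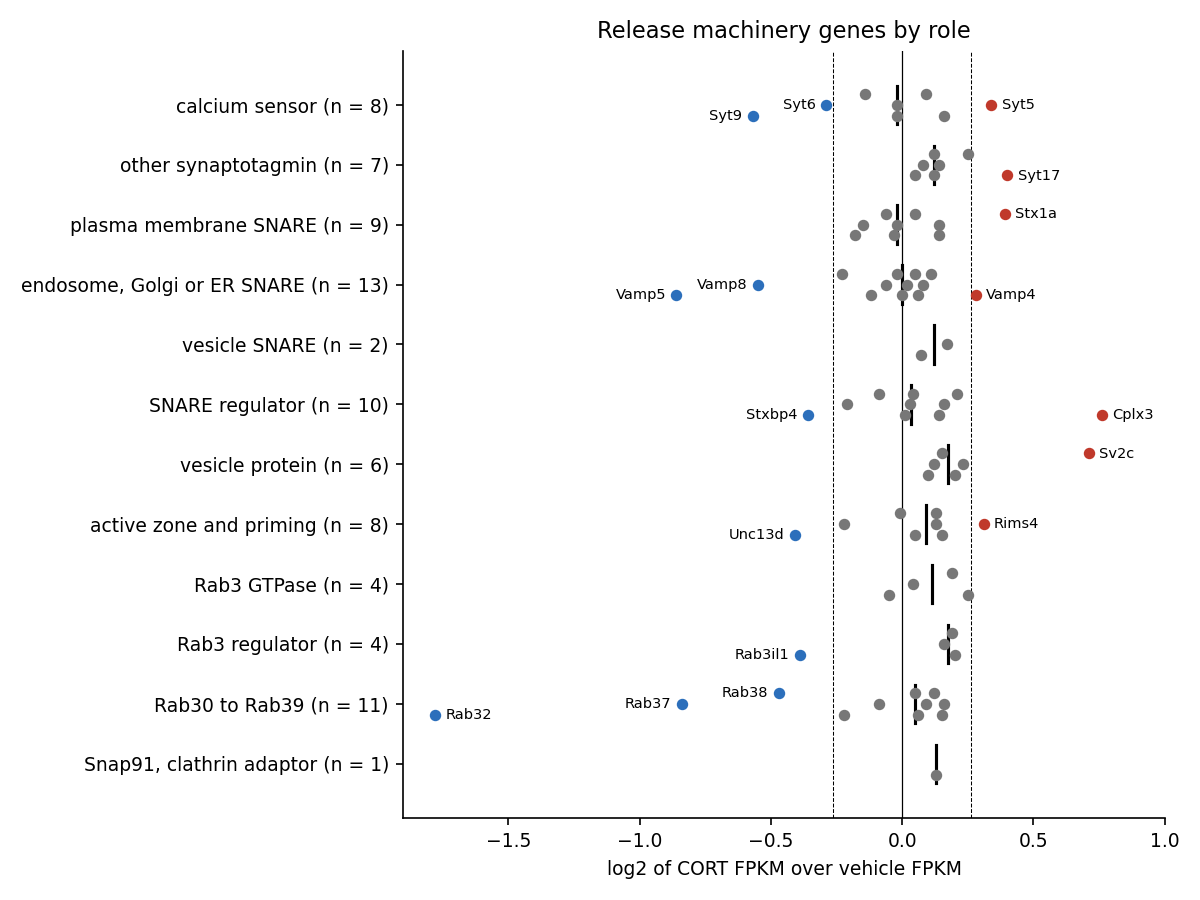
log2 ratio of CORT over vehicle FPKM (x axis) for each of the 83 members, grouped by role, with a bar at each role's median and dashed lines at 1.2-fold. The 7 higher members (red) fall in 7 different roles, and 3 of the 10 lower ones (blue) are Rab32, Rab37 and Rab38.

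The 6 genes for proteins of the vesicle membrane and its reserve pool were all higher with CORT at any size, 5 of them within 1.2-fold. At any size, 54.2% of all symbols were higher, and 60.7% of those with a mean of at least 10 FPKM. Syn1, the most abundant synapsin, was at 168 FPKM (vehicle) and 182 FPKM (CORT) (log2 ratio 0.12). Syn2 was at 112 and 131 FPKM (0.23), and Syn3, an early developmental synapsin, was at 1.57 and 1.67 FPKM (0.10). The glycoproteins Sv2a and Sv2b were at 103 and 114 FPKM (0.15) and at 88.4 and 101 FPKM (0.20). Sv2c, which is concentrated in the basal ganglia, was past 1.2-fold, at 0.692 and 1.13 FPKM (0.71), but with 1 FPKM added to both values its log2 ratio was 0.33. The 6 genes had a median of 0.17, and Syn1 and Sv2a led their families in both groups.

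Proteins that regulate the SNARE complex were close between groups where they were abundant. Cplx1 was at 251 FPKM (vehicle) and 281 FPKM (CORT) (log2 ratio 0.16), and Cplx2 was at 278 and 284 FPKM (0.03). Cplx2 led the complexins in both groups, with 52.4% of their summed FPKM with vehicle and 50.1% with CORT. Cplx3, best known from retinal ribbon synapses, had the largest positive log2 ratio of any member, 0.76, from 1.16 and 1.95 FPKM, and 0.45 with 1 FPKM added. Stxbp4, which binds syntaxin-4, was at 1.33 and 1.04 FPKM (-0.36). Only Cplx3 and Stxbp4 of the 10 regulators passed 1.2-fold, both at levels under 2 FPKM.

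At the active zone, RIMs tether vesicles and calcium channels and Unc13 (Munc13) proteins prepare syntaxin for assembly. Rims1, the main RIM, was at 20.4 FPKM (vehicle) and 21.1 FPKM (CORT) (log2 ratio 0.05). Rims2 was at 4.83 and 5.29 FPKM (0.13), and Rims3 at 5.57 and 5.55 FPKM (-0.01). Rims4, a short RIM without the Rab3-binding part, was at 11.3 and 14 FPKM (0.31). Rims4 thereby held 26.9% of summed RIM FPKM with vehicle and 30.5% with CORT, and Rims1 held 48.4% and 45.9%. Unc13a, the main priming factor of excitatory synapses, was at 29.9 and 33.1 FPKM (0.15). Unc13b was at 7.39 and 8.07 FPKM (0.13), and Unc13c, typical of cerebellum, at 1.03 and 0.889 FPKM (-0.22). Unc13d, which primes granules of immune cells, was the one past 1.2-fold, at 1.17 and 0.882 FPKM (-0.41).

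The Rab3 GTPases, which bind vesicles and recruit RIM, lay within 1.2-fold. Rab3a was at 385 FPKM (vehicle) and 440 FPKM (CORT) (log2 ratio 0.19), and made up 89.4% and 90.1% of the summed FPKM of the Rab3 GTPases. Rab3b was at 26.0 and 26.8 FPKM (0.04), and Rab3c lay just inside the threshold at 9.88 and 11.8 FPKM (0.25). Both subunits of the Rab3 GTPase-activating complex were slightly higher, inside 1.2-fold. Rab3gap1 was at 26.7 and 30.8 FPKM (0.20) and Rab3gap2 at 14.7 and 16.8 FPKM (0.19). Rab3il1, an exchange factor for Rab3a, was lower past 1.2-fold, at 7.26 and 5.54 FPKM (-0.39).

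Among the members matched by letters alone, 3 were lower past 1.2-fold. Rab32, a GTPase of lysosome-related organelles and mitochondria, had the lowest log2 ratio of all members, -1.78, from 1.43 FPKM (vehicle) and 0.419 FPKM (CORT). Its relative Rab38 was at 2.82 and 2.03 FPKM (-0.47). Rab37, known from mast cell granules, was at 1.17 and 0.651 FPKM (-0.84). The other 8 genes of Rab30 to Rab39 lay within 1.2-fold, and the median of the 11 was 0.05. Snap91 was at 91.9 and 101 FPKM (0.13). Without the 11 Rab genes, the counts past 1.2-fold were 7 higher and 7 lower.

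Some members had less abundant transcripts that stood farther from equality than the leading one. Of the members, 19 had more than 1 row, with 25 further rows, of which 10 were higher by 1.2-fold or more (30.1% of all further rows in the table) and 3 were lower (19.1% of all further rows). Rows of a symbol share reads, and the authors' tool estimated how to split them, so each split is uncertain. A second Syt1 row was at 40.0 FPKM (vehicle) and 52.6 FPKM (CORT) (log2 ratio 0.39). A second Sv2b row was at 2.91 and 5.01 FPKM (0.78). Further higher rows included those of Rims1, Stx12, Stxbp5, Syt7, Syt16 and Unc13b.

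Stx12, Syt7 and Vamp4 had rows on opposite sides of 0, at least 1 of them past 1.2-fold. Stx12, an endosomal syntaxin, had a leading row at 78.1 FPKM (vehicle) and 77.3 FPKM (CORT) and a further row at 11.5 and 14.8 FPKM (log2 ratio 0.36). The second row of Syt7 was at 18.9 and 23.0 FPKM (0.28), whereas the fifth was at 1.24 and 0.856 FPKM (-0.53) and the sixth at 1.34 and 0.425 FPKM (-1.66). The third row of Vamp4 was at 3.07 and 1.66 FPKM (-0.89), beside the leading row at 0.28. With rows summed, the log2 ratios were 0.04 for Stx12, 0.05 for Syt7 and 0.10 for Vamp4, so that Vamp4 no longer passed 1.2-fold. Syt16, at 10.2 and 11.1 FPKM in its leading row and 3.58 and 5.48 FPKM in a further row, did so when summed (0.27).

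**Figure D5:**
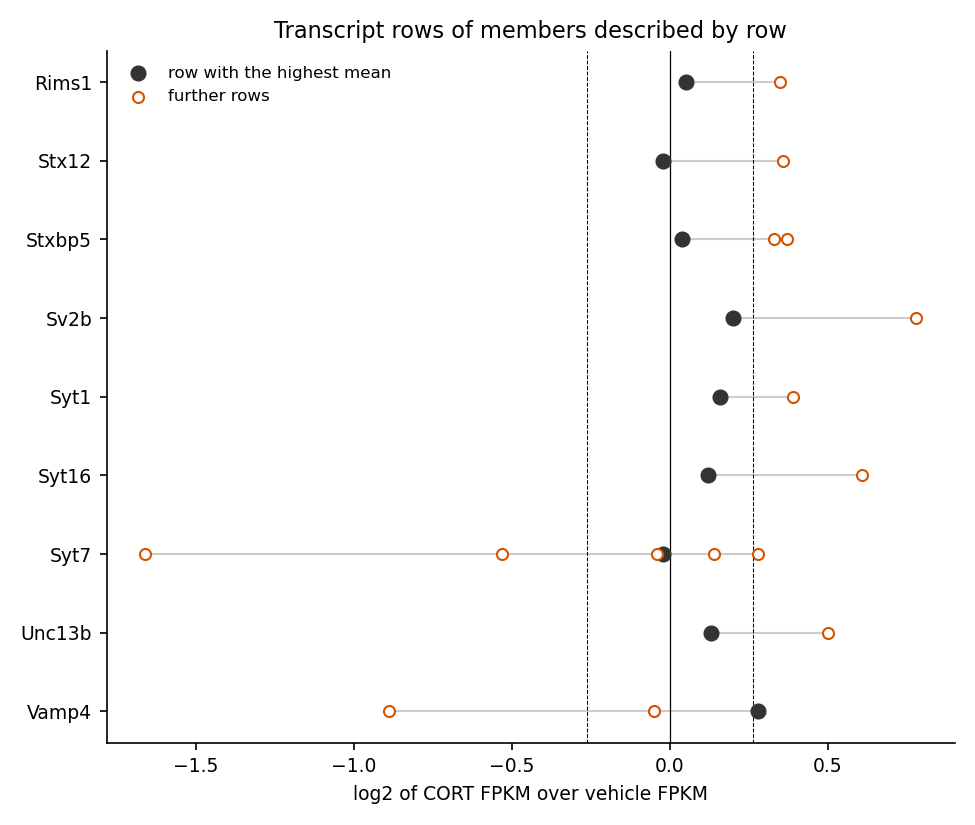
log2 ratio of CORT over vehicle FPKM (x axis) of every transcript row of the 9 members whose rows are described, the leading row and further rows marked apart, with dashed lines at 1.2-fold. Leading rows cluster near 0, and the further rows of Syt7 reach from 0.28 down to -1.66.

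Genes of vesicle release and retrieval outside the rule were taken from a list of 82, of which 79 had a row. Of these, 11 were higher and 4 lower by 1.2-fold or more, beside 8.34% and 12% of all symbols. Their median log2 ratio was 0.13, beside 0.02. The list was well expressed, with a median of 35.8 FPKM in the vehicle group. Among symbols with a mean of at least 10 FPKM, 4.91% were higher and 3.96% lower, with a median log2 ratio of 0.03. These shares are also the background of each smaller list, where counts are low. Among 17 active zone scaffold genes, 4 were higher and none lower. They were Bsn (Bassoon) at 21.7 FPKM (vehicle) and 26.6 FPKM (CORT), Pclo (Piccolo) at 7.78 and 9.71 FPKM, Erc2 at 7.49 and 9.32 FPKM and Lin7a at 1.23 and 2.21 FPKM. Of 11 priming and calcium-sensing genes, Doc2b (15.9 and 19.3 FPKM) and Rab27b (4.23 and 5.24 FPKM) were higher, and Rab27a (5.22 and 4.01 FPKM) and Tmem163 (6.87 and 5.47 FPKM) were lower. The 4 genes of SNARE disassembly, such as Napa, lay within 1.2-fold with a median of 0.17.

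The transporters that fill the vesicles did not share a direction. Slc32a1, which loads GABA, was at 25.4 FPKM (vehicle) and 32 FPKM (CORT), and Slc17a8 (VGLUT3) at 1.47 and 2.25 FPKM. Slc17a6 (VGLUT2), typical of thalamic neurons, was lower, at 9 and 5.56 FPKM. Of the other vesicle membrane genes, Syngr1 was higher at 84.1 and 102 FPKM. Cacna1e, a presynaptic calcium channel, was at 9.40 and 12.3 FPKM, and Pacsin1 of vesicle retrieval at 79.9 and 98.7 FPKM. Sncg (gamma-synuclein) was lower, at 14.1 and 7.41 FPKM.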

How the data were processed

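Stranded total RNA libraries of hippocampi from 8 adrenalectomized rats, 4 infused with vehicle and 4 with CORT, were sequenced by the authors. The submitters' processing notes name CASAVA 1.8.2, TopHat2 2.0.10, Cuffdiff 2.2.0 and the rn6 genome. The authors deposited 1 FPKM value per transcript and group, normalized geometrically between libraries with at least 10 alignments per transcript, and corrected for multiply mapped reads, sequence bias and effective length. The table also holds the authors' own comparison (fold changes, test statistics, p-values and q-values), which was not used. Depth per library and values per rat cannot be read from it, so no interval, floor or test was computed. There were no per-sample columns, so none had to be matched to rats.

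The log2 ratio of CORT over vehicle FPKM was taken without a pseudocount, after 1 row per symbol had been chosen. The scripts were run on simulated group values with planted shifts far past 1.2-fold and no spread between rats. That run checks the code and not the results. Members and lists were chosen with earlier results of these data known. Named were every member past 1.2-fold with at least 1 FPKM in a group, the highest member of each family, a textbook core of fast release, and members whose rows lay on opposite sides of 0 with 1 past 1.2-fold. Rab3gap1, Rab3gap2, Stx4, Syt11, Syt13, Syt16, Vamp3, Vamp7, Snap91 and, among the closing observations, neighbouring genes were named after their values were seen. Alternatives were pseudocounts of 1 and 0.1 FPKM, means of at least 1 or 10 FPKM, summed rows, centring on the median of all symbols, a fold of 1.5 and leaving out Rab30 to Rab39. Results on some named members are not reported here. Marker lists were matched by symbol, and promoters came from RefSeq (GRCr8). Python 3.11.15, numpy 2.4.6, pandas 2.3.3 and matplotlib 3.10.9 were used.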

Additional observations from a re-analysis of the deposited data

How the results depend on the processing

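At a fold of 1.5 in place of 1.2, 2 members were higher in place of 7 and 3 were lower in place of 10, as a larger fold passes fewer genes by construction. With a mean of at least 10 FPKM, 2 members were lower, because 8 of the 10 lower members had a lower mean than that. The other counts stayed within 1.5 times those reported. Of 42 named members, a pseudocount of 1 FPKM moved the log2 ratio of 9 by more than 0.1, all of them low in expression, and took Stxbp4, Syt6 and Unc13d inside 1.2-fold. Rab32 was at -0.78 with that pseudocount and at -1.56 with 0.1 FPKM. Summing rows took Vamp4 inside 1.2-fold and Syt16 past it, and centring moved none of the named members by more than 0.1. Stx12 and Syt7, both at -0.02, were at 0.04 and 0.05 with rows summed, and no other named member changed sign under these settings.

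No paired analysis was possible because the values are 1 per group and the columns carry no rat number. For the same reason leaving out each rat was not run, and a difference decided by 1 rat cannot be seen. The unknown depth limits the members under 10 FPKM most.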

Other observations

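Genes next to some members were compared after their values had been seen, within 50 kb in rn6. Vamp2 (chromosome 10, 55675574 to 55679450) lies 7.60 kb from Per1 (chromosome 10, 55687049 to 55695994), a clock gene and a known glucocorticoid target. Per1 was at 10.2 FPKM (vehicle) and 19.7 FPKM (CORT) (log2 ratio 0.95), whereas Vamp2 was at 461 and 483 FPKM (0.07). On the other side of Vamp2, Tmem107 was at 10.7 and 8.58 FPKM (-0.32). The other genes within 50 kb had log2 ratios of 0.45 (Aloxe3), 0.15 (LOC497934), 0.06 (Aurkb) and 0.01 (Hes7). The ratios of these neighbours thus differed in size, and Tmem107 alone was lower.

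Vamp5 and Vamp8 lie 17.7 kb apart on chromosome 4, with log2 ratios of -0.86 and -0.55. Their neighbours lay nearer 0. Tmem150a was at 15.3 and 13.6 FPKM (-0.17), Rnf181 at 41.1 and 43.5 FPKM (0.08) and Ggcx at 10.1 and 9.84 FPKM (-0.03).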
